A study of Rattus norvegicus with 24 samples.

Results

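The Toll-like receptors Tlr2, Tlr4, Tlr7 and Tlr9, the co-receptors Cd14 and Ly96, and the adaptors and kinases Myd88, Irak1, Irak4 and Traf6 were followed in blood mononuclear cells of rats with collagen-induced arthritis and of healthy rats. They were taken as every probe set that the platform annotation pairs with 1 gene symbol and whose symbol is 1 of these 10. The rule found 13 probe sets of 9 genes among the 20832 probe sets with 1 symbol in a table of 31099. Tlr9 had no probe set with 1 symbol and was not analysed here. Of the 13, 11 probe sets of 7 genes passed the filter on low values and were tested. Tlr4 and Irak4 did not pass it.

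Mononuclear cells were isolated from the blood of female Wistar rats on a Ficoll gradient, and their RNA was hybridised to an Affymetrix rat genome array. There were 24 arrays in 12 groups of 2, and each array was a separate rat, because animals were bled completely and killed at sampling. Their age is not given in the sources used here. Arthritis (CIA) was induced with bovine type II collagen in Freund's adjuvant, and healthy rats without it are called NOCIA (NORA in the labels). Baseline samples, before any therapy, came from CIA and from NOCIA rats, and 5 arms were sampled at 1 hour and at 34 days. The arms were NOCIA, MS (CIA rats stimulated with a twirled needle, AP in the labels), MTX (CIA rats injected with methotrexate), PLA (CIA rats injected with saline) and ANE (CIA rats sampled under isoflurane in place of ether, with no other therapy). Animals of all arms were shaved. No CIA rats were sampled untreated under ether at 34 days, and the CIA arms share the 2 CIA baseline arrays, so their differences from baseline are not independent of each other.

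Toll-like receptors sense microbial products and some products of injured tissue. Tlr2 and Tlr4 work at the cell surface, Tlr2 mainly for bacterial lipoproteins and Tlr4 for lipopolysaccharide, which Cd14 hands over to the complex of Tlr4 and Ly96 (MD-2). Tlr7 and Tlr9 work in endosomes and sense single-stranded RNA and unmethylated CpG DNA. Most of these receptors recruit the adaptor Myd88, which assembles the kinases Irak4 and Irak1. These engage Traf6, a ubiquitin ligase whose chains activate the kinases upstream of NF-kB and of the MAP kinases. In blood, Cd14, Tlr2 and Ly96 are typical of monocytes and neutrophils, Tlr7 is carried by B cells, plasmacytoid dendritic cells and monocytes, and Traf6 is expressed widely.

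The promoters of Cd14 and Tlr2 are shown because these are the receptor-level genes whose values moved most between arrays. Each is 300 bases long, most of it before the start of the gene, and is given 5′ to 3′ on the strand of the gene, from RefSeq on build GRCr8, where both genes lie on the minus strand. Capitals in the Tlr2 promoter (chr2:171504508-171504807) mark matches to the NF-kB pattern (GGG, any 5 bases, CC), and capitals in the Cd14 promoter (chr18:28611109-28611408) mark matches to GAGGAAG, a core of the myeloid factor PU.1.
Tlr2: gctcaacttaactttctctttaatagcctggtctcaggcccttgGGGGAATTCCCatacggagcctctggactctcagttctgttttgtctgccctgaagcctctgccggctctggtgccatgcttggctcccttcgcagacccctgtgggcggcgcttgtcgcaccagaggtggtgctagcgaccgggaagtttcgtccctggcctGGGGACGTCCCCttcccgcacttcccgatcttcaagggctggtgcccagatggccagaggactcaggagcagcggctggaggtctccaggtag
Cd14: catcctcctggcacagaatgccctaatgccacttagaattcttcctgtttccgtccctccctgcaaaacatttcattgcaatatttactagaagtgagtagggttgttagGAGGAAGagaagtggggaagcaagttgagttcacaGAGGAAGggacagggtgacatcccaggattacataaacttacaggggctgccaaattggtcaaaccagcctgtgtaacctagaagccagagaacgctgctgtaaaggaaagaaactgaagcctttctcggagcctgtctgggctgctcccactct
Both strands were searched for 5 patterns in the 8 of 10 promoters that the RefSeq table held. Those of Traf6 and Ly96 were not among them. The Tlr2 promoter had 7 matches to the NF-kB pattern, which overlap in 2 stretches, 1 around base -205 and 1 around base -42 from the start. The Cd14 promoter had 2 matches to GAGGAAG, at bases -140 and -105, and 2 overlapping matches to the NF-kB pattern after the start, which are left in lower case. GAGGAAG also occurred once in Tlr4, once in Irak4 and 2 times in Tlr9. The Myd88 promoter held 1 match to the interferon-stimulated response element (TTTC, any 2 bases, TTTC) and 1 to the AP-1 pattern TGANTCA. Tlr9 also held 1 match to TGANTCA, and Irak4 held 2 to the NF-kB pattern, at bases -64 and -45. The Tlr7 and Irak1 promoters held none of the 5 patterns. Of 33469 promoters of this length, 47.3% held the NF-kB pattern, 12.4% held GAGGAAG, 3.92% held the interferon-stimulated element, 7.33% held TGANTCA and 1.83% held TGACGTCA, the cAMP response element.

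All levels below are log2 values, and differences between groups are differences of these, each ± the SE that limma gave, with n = 2 arrays per group and the spread pooled over the 12 groups. Called means an adjusted p under 0.05 (limma, Benjamini-Hochberg over the 20690 probe sets tested in a comparison). The thresholds of the study's methods, an unadjusted p under 0.05 with a fold change over 2, are given beside it. Levels are compared within a probe set only.

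Markers showed the mixture that a mononuclear preparation holds. All 14 T cell markers, all 8 NK cell markers and 11 of 12 monocyte markers (all but Cd163) passed the filter, as did the measured markers of B cells (8), neutrophils (9), platelets (13) and red cells (5). The replicates of some groups differed in these marker levels. The first replicates of MS at 34 days, MS at 1 hour and ANE at 1 hour and the second of PLA at 1 hour, which stood apart in an earlier analysis of these data, had the 4 highest platelet marker levels (1.25, 1.10, 0.90 and 0.97, means of 13 markers centred over the arrays). They are called the 4 arrays that stood apart. The mean level of the 11 monocyte markers, centred over the 24 arrays, was -1.32 in MS 34-day replicate 1, -1.07 in MS 1-hour replicate 1 and -1.36 in ANE 1-hour replicate 1, against 0.97 in ANE 1-hour replicate 2. In bulk RNA, fewer cells of a type and less RNA per cell cannot be told apart.

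The clearest change was in Traf6, and it was in healthy rats. From baseline to 34 days in NOCIA rats, Traf6 rose at all 4 of its probe sets, between 5.64-fold and 12.7-fold. No other member was called in that comparison, and 12% of all probe sets tested were called in either direction and 6.31% as higher. Probe set 1383778_at read 8.45 and 8.51 in the baseline arrays and 11.22 and 10.73 at 34 days, a difference of 2.50 ± 0.32 (limma adjusted p = 0.000352). Probe set 1392660_at read 8.11 and 8.12 at baseline and 11.16 and 10.54 at 34 days, a difference of 2.73 ± 0.34 (limma adjusted p = 0.000285).

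The other two probe sets of Traf6 moved by more. Probe set 1393809_at read 6.80 and 6.56 at baseline and 10.82 and 9.88 at 34 days, which is 3.67 ± 0.43 higher (limma adjusted p = 0.000229). Probe set 1384582_at read 7.23 and 7.39 at baseline and 10.63 and 9.75 at 34 days, which is 2.88 ± 0.37 higher (limma adjusted p = 0.000352). The groups did not overlap at any of the 4, as was so for 31.7% of all probe sets as higher. The 2 NOCIA 34-day arrays lay above every other array of the study at 1383778_at and 1392660_at, while at 1393809_at and 1384582_at the second MS 1-hour array (10.18 and 9.92) came between them. The 2 NOCIA baseline arrays lay below every other array at 1393809_at and 1384582_at. The 4 probe sets tracked each other closely, with Pearson correlations from 0.92 to 0.98 over the 24 arrays. They report on 1 gene in the same RNA and are not separate replicates. Each stayed called in all 12 alternative fits of this comparison, with adjusted p from 1.8e-07 to 0.0119.

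**Figure D1:**
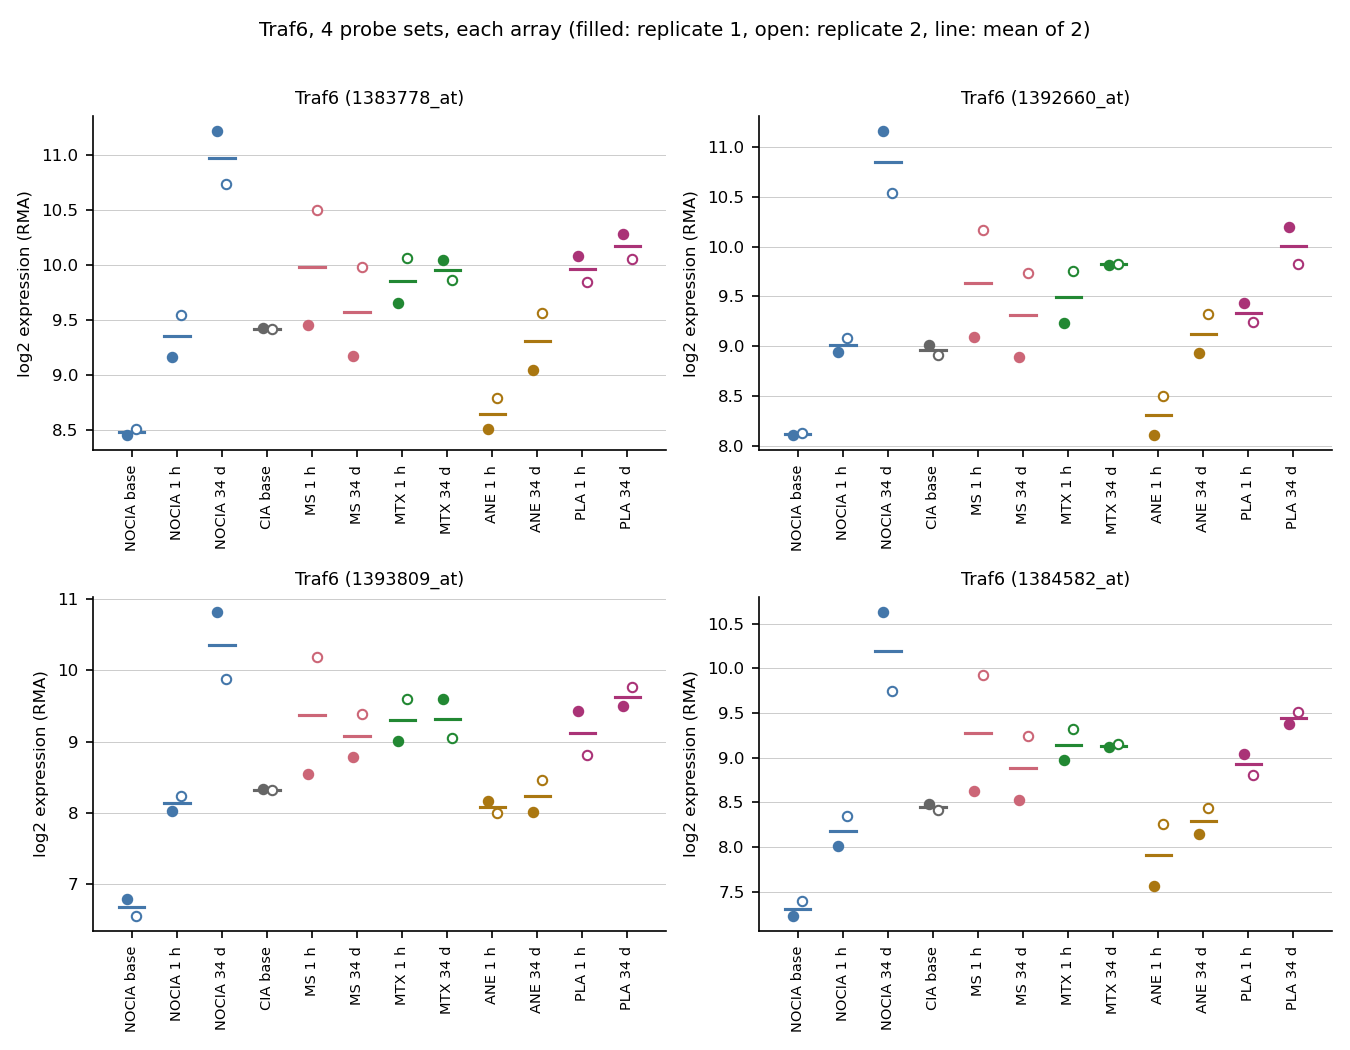
Log2 expression (vertical axis) of the 4 Traf6 probe sets in each of the 24 arrays, by group (horizontal axis), with filled points for replicate 1, open points for replicate 2 and a line at their mean. In every panel NOCIA baseline has the lowest group mean (8.48, 8.11, 6.68 and 7.31) and NOCIA at 34 days the highest (10.97, 10.85, 10.35 and 10.19).

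Marker levels of several cell types differed in the same comparison. The mean centred level of the B cell markers was 0.83 and 0.87 at NOCIA baseline and -0.70 and -0.65 at 34 days. The 3 plasmacytoid dendritic cell markers measured (Tcf4, Pacsin1 and Bcl11a) averaged 0.59 and 0.65 at baseline and -0.40 and -0.61 at 34 days. Siglech and Spib, the other markers of that list, had no probe set with 1 symbol. Whether the 3 tell plasmacytoid dendritic cells from B cells was not tested. The T cell markers averaged 0.44 and 0.44 at baseline against -0.14 and -0.36 at 34 days. The level of the NK cell markers was 0.43 and 0.33 at baseline and -1.28 and -0.93 at 34 days. Monocyte markers were close at both times, 0.31 and 0.05 against -0.15 and 0.05, and neutrophil markers were higher, -0.69 and -0.91 against 0.42 and 0.39. Over the 20 arrays without the 4 that stood apart, the Traf6 probe sets correlated with the B cell marker level at Pearson r of -0.71 to -0.75, and over all 24 arrays at -0.49 to -0.61. With the plasmacytoid dendritic cell markers the values were -0.71 to -0.72 and -0.35 to -0.50. These arrays share their groups and normalization, so the correlations are a description. The part of the cell mixture in the Traf6 difference was not tested.

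Traf6 was also lower at NOCIA baseline than at CIA baseline, but without a call. Probe set 1393809_at read 8.33 and 8.32 in CIA, against 6.80 and 6.56 in NOCIA, a difference of 1.65 ± 0.43 (limma unadjusted p = 0.00157, adjusted p = 0.869). The other 3 differed by 0.85 ± 0.34 to 1.13 ± 0.37, also without overlap, which 28.6% of all probe sets showed as higher. No member was called in CIA against NOCIA at baseline, where 0.00483% of all probe sets were called, and 2 (both of Traf6) passed the study's thresholds, as 0.739% of all probe sets did. The Traf6 baseline difference depended on how the spread was estimated. All 4 probe sets were called when only the 4 arrays compared were fitted and with array weights, and 2 were called without the 4 arrays that stood apart.

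At 1 hour, the mean Traf6 level of NOCIA rats was above that of NOCIA baseline at all 4 probe sets, and below that of CIA baseline at all but 1392660_at (9.01 against 8.96). Probe set 1393809_at read 8.03 and 8.24, which is 1.46 ± 0.43 above NOCIA baseline (limma unadjusted p = 0.00395, adjusted p = 1), and the other 3 were 0.87 to 0.89 above it. No member was called, against 0.00483% of all probe sets. Nothing was called among members at 1 hour in the CIA arms either. The Traf6 differences from CIA baseline were 0.56 to 1.04 in MS, 0.44 to 0.98 in MTX, 0.38 to 0.79 in PLA and -0.77 to -0.24 in ANE. In MS they rested on the second array, which read 10.50 at 1383778_at, against 9.45 in the first array and 9.43 and 9.42 in CIA baseline. The share of all probe sets called at 1 hour was 0.00967% in MS, 0.0145% in MTX, 0.0338% in ANE and 0% in PLA.

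At 34 days no member was called in the 4 CIA arms against CIA baseline, where the share of all probe sets called was 6.96% in MS and 0% in MTX, ANE and PLA. Traf6 at 1383778_at read 9.17 and 9.98 in MS, 10.05 and 9.86 in MTX, 9.05 and 9.57 in ANE and 10.28 and 10.05 in PLA. At this probe set the ANE and MS arrays spanned the CIA baseline level of 9.43 and 9.42, while both MTX and both PLA arrays lay above it. Both MS arrays also lay above CIA baseline at 1393809_at (8.78 and 9.38 against 8.33 and 8.32). The same held at 1384582_at (8.53 and 9.24 against 8.48 and 8.41). The differences at 1383778_at were 0.15 ± 0.32, 0.53 ± 0.32, -0.11 ± 0.32 and 0.75 ± 0.32 in MS, MTX, ANE and PLA. In MTX 2 member probe sets were higher and 0 lower at an unadjusted p under 0.05, as 1.67% of all probe sets were higher. In PLA all 4 Traf6 probe sets were higher at an unadjusted p under 0.05, as were 1.81% of all probe sets, and 2 of them, 1392660_at (1.05 ± 0.34) and 1393809_at (1.31 ± 0.43), passed the study's thresholds, as 0.329% of all did, with limma adjusted p of 0.877 and 0.905. Fitting only the groups compared called 3 members in PLA, and array weights called 5. Those fits called 130 and 1723 of all 20690 probe sets.

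The 34-day change of each CIA arm was then set against that of NOCIA rats. In ANE it was smaller than in NOCIA at all 4 Traf6 probe sets, with differences of -2.61 ± 0.46 at 1383778_at, -2.57 ± 0.48 at 1392660_at, -3.76 ± 0.61 at 1393809_at and -3.03 ± 0.53 at 1384582_at (limma adjusted p = 0.0118, 0.0142, 0.00899 and 0.0116). In this test 2.86% of all probe sets were called, and 1.99% as lower. The same test in MS gave -2.34 to -2.91 with adjusted p from 0.077 to 0.0868, in MTX -1.87 to -2.68 with adjusted p from 0.257 to 0.28, and in PLA -1.69 to -2.36 with adjusted p from 0.176 to 0.205, with no member called. The shares of all probe sets called there were 0.0338%, 0.0242% and 0.00967%. All 4 tests use the same NOCIA arrays, whose baseline Traf6 level was the lowest, and the arms were not compared with each other. The ANE calls were kept in 10, 10, 12 and 10 of 16 alternative fits, in the order above. They were lost in some fits that left out 1 array, which leaves 1 array in a group. Without 1 NOCIA array or 1 CIA baseline array, calls over all probe sets fell too. The differences kept their sign. They ran from -2.87 to -2.35 at 1383778_at and from -2.88 to -2.26 at 1392660_at. At 1393809_at they ran from -4.23 to -3.29, and at 1384582_at from -3.47 to -2.59.

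**Figure D2:**
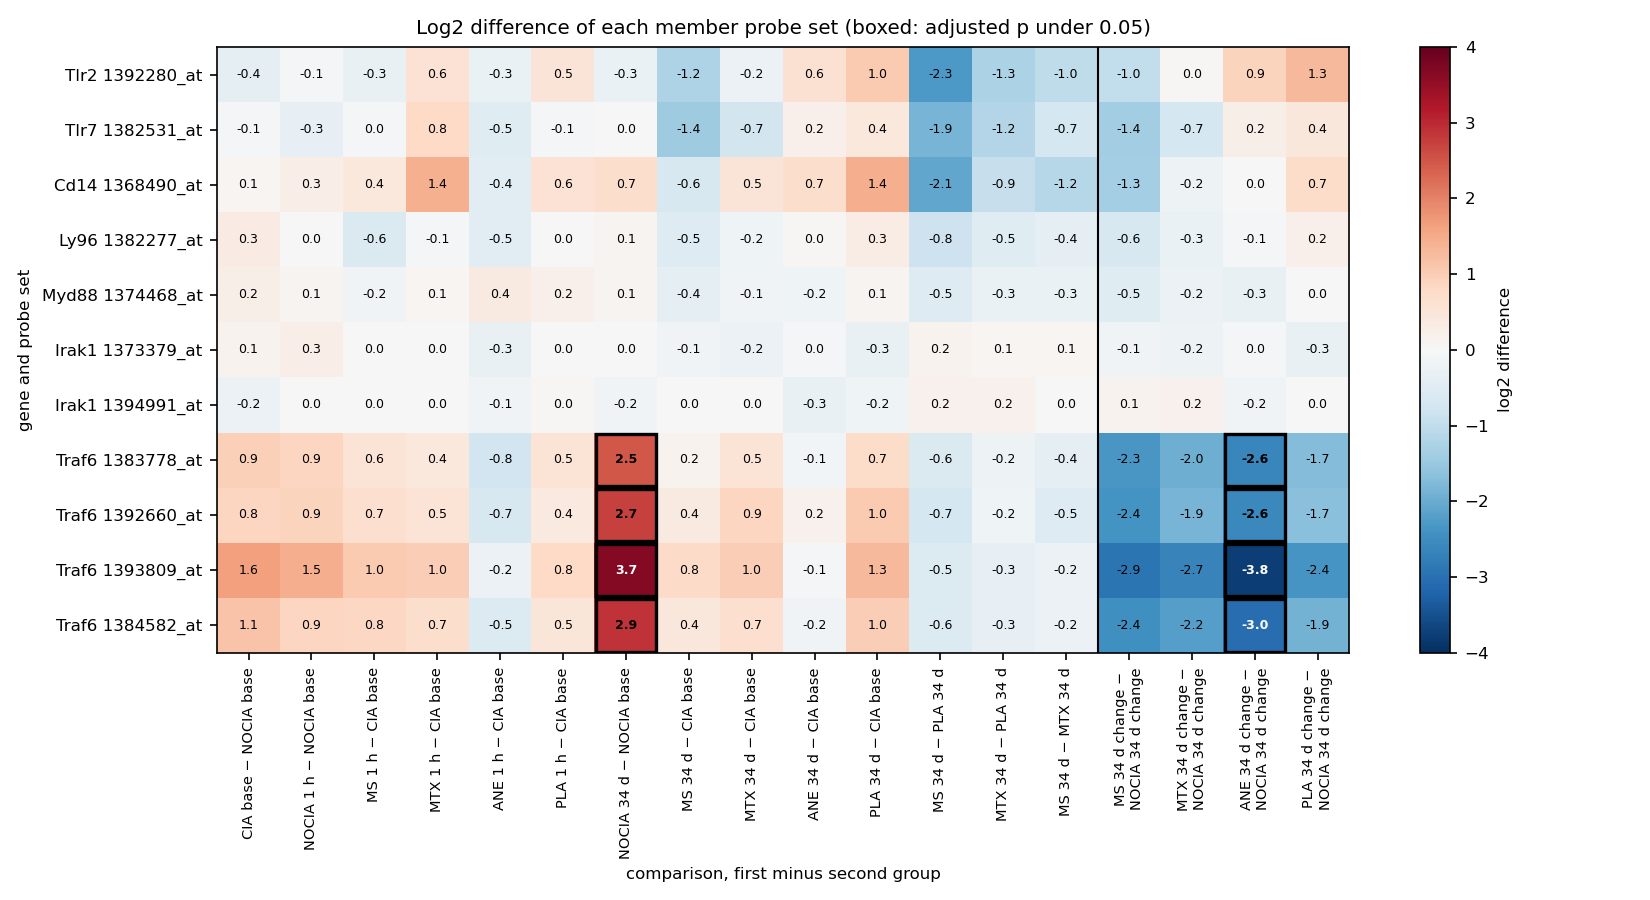
Log2 difference (colour, and number in each cell) of the 11 tested probe sets (rows) in the 14 comparisons of 2 groups and, right of the line, the 4 tests of a CIA arm's 34-day change against that of NOCIA (columns), with boxes where the limma adjusted p was under 0.05. The 8 boxes are all in the Traf6 rows, in NOCIA at 34 days against baseline and in the ANE test.

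Among the receptors, Tlr2 was not called in any comparison. Its levels were 8.19 and 8.01 at NOCIA baseline, 7.89 and 7.50 at CIA baseline, 7.99 and 8.10 in NOCIA at 1 hour and 7.75 and 7.93 in NOCIA at 34 days. These 4 groups lay within 1 log2 unit. The arms of CIA rats spread more widely. At 34 days Tlr2 read 5.56 and 7.33 in MS, 6.85 and 8.11 in MTX, 8.37 and 8.25 in ANE and 8.90 and 8.58 in PLA. At 1 hour it read 7.13 and 7.69 in MS, 8.14 and 8.40 in MTX, 8.13 and 8.27 in PLA, and 5.23 and 9.63 in ANE, the lowest and the highest array of the study.

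Tlr7, the endosomal RNA sensor, had the same 2 arrays at its ends, 4.79 and 8.42 in ANE at 1 hour. MS 34-day replicate 1 was next to the bottom with 4.86, and its second array read 6.46. MTX at 34 days read 5.88 and 6.82, PLA 7.43 and 7.59, ANE 7.30 and 7.29 and NOCIA 6.90 and 7.34, so the MS and MTX arrays lay below those of the other arms. Baseline levels were 7.25 and 7.04 in NOCIA and 6.93 and 7.25 in CIA, which overlap. At 1 hour Tlr7 read 7.27 and 6.38 in NOCIA, 6.45 and 7.65 in MS, 7.76 and 7.99 in MTX and 6.65 and 7.40 in PLA.

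Cd14, which loads lipopolysaccharide onto the receptor, ranged furthest. ANE at 1 hour read 7.53 and 12.21, a difference of 4.69 between replicates against a median of 0.64 over the groups. At 34 days it read 8.87 and 10.40 in MS, 10.39 and 11.19 in MTX, 11.30 and 10.69 in ANE, 11.58 and 11.87 in PLA and 11.08 and 10.73 in NOCIA. Baseline levels were 10.54 and 9.86 in NOCIA and 10.07 and 10.48 in CIA. Both PLA arrays were above both CIA baseline arrays, by 1.45 ± 0.96 on average (limma adjusted p = 1), and so were both MTX 1-hour arrays (11.57 and 11.80, a difference of 1.41 ± 0.96, limma adjusted p = 1). Cd14 in PLA at 34 days was called in 2 of 12 alternative fits.

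Ly96, the partner of Tlr4, kept within 7.88 and 9.06 apart from the first arrays of ANE at 1 hour (7.07) and of MS at 34 days (7.74). Its highest group mean was that of PLA at 34 days (8.87 and 8.81), and CIA baseline read 8.58 and 8.48. Tlr4 itself read 3.54 to 4.78 over all arrays, below the 40th percentile of the arrays (4.83 to 5.06), so its level was too low to be followed. Fitted without the filter, Tlr4 in NOCIA at 34 days minus baseline was -0.87 ± 0.24 (limma adjusted p = 0.0382), from 4.78 and 4.63 to 3.72 and 3.94. That fit called 2433 of all 31042 probe sets in this comparison.

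The needle and placebo arms at 34 days differed most in these receptors. In MS minus PLA, Tlr2 differed by -2.30 ± 0.90, Cd14 by -2.09 ± 0.96 and Tlr7 by -1.85 ± 0.81, with no overlap of the arrays. These 3 passed the study's thresholds, as 8.36% of all probe sets did in either direction and 3.04% did as lower. None was called (limma adjusted p = 0.181, 0.207 and 0.198), nor was any of the 20690 probe sets in this comparison (0%), although 23.2% had an unadjusted p under 0.05. Ly96 differed by -0.84 ± 0.44 and Myd88 by -0.51 ± 0.29, also without a call. In all, 9 of the 11 member probe sets lay lower in MS without overlap, against 32.8% of all probe sets. The 4 Traf6 probe sets, which report on 1 gene, were among the 9, with Tlr2, Tlr7, Cd14, Ly96 and Myd88. The 2 Irak1 probe sets lay higher without overlap. Without MS replicate 2, which leaves MS replicate 1 alone, Tlr2 differed by -3.18, Cd14 by -2.85 and Tlr7 by -2.65. Without MS replicate 1, Tlr2 differed by -1.41, Cd14 by -1.32 and Tlr7 by -1.05. The size of these differences therefore depended strongly on which MS array was used. In MTX against PLA the differences were -1.27 ± 0.90, -0.94 ± 0.96 and -1.16 ± 0.81 for Tlr2, Cd14 and Tlr7 and in MS against MTX -1.03 ± 0.90, -1.15 ± 0.96 and -0.69 ± 0.81, with 0% of all probe sets called in either comparison.

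Cell type marker levels moved with these values. The monocyte marker level was -1.32 and 0.11 in MS at 34 days, -0.46 and 0.37 in MTX, 0.47 and 0.24 in ANE and 0.36 and 0.42 in PLA. The neutrophil marker level was -1.19 and -0.67 in MS and -0.22 and 0.47 in PLA. T cell markers read -1.46 and -0.21 in MS and 0.10 and 0.06 in PLA, and NK cell markers -1.56 and -0.56 in MS and 0.61 and 0.22 in PLA. The platelet marker level (13 markers) was higher, 1.25 and 0.47 in MS, against -0.34 and -0.64 in PLA. Over the 24 arrays the monocyte level correlated with Ly96 at Pearson r = 0.90, with Tlr2 at 0.90, with Tlr7 at 0.80, with Cd14 at 0.77 and with Myd88 at 0.63. Without the 4 arrays that stood apart the values were 0.88, 0.79, 0.52, 0.45 and 0.57. With the neutrophil level, Cd14 correlated at 0.75, Tlr2 at 0.71, Tlr7 at 0.65, Ly96 at 0.59 and Myd88 at 0.58 over the 24 arrays. Without the 4 these were 0.66, 0.60, 0.46, 0.40 and 0.65. With the platelet level the same genes, in that order, gave -0.54, -0.66, -0.66, -0.61 and -0.57 over the 24 arrays. Without the 4 these were -0.23, -0.43, -0.49, -0.46 and -0.44. The monocyte values were 0.20 and 0.03 for the 2 Irak1 probe sets and -0.06 to 0.11 for Traf6 over the 24 arrays, and -0.10 and -0.16 for Irak1 and -0.42 to -0.32 for Traf6 without the 4. The part of the cell mixture in the receptor differences was not tested.

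**Figure D3:**
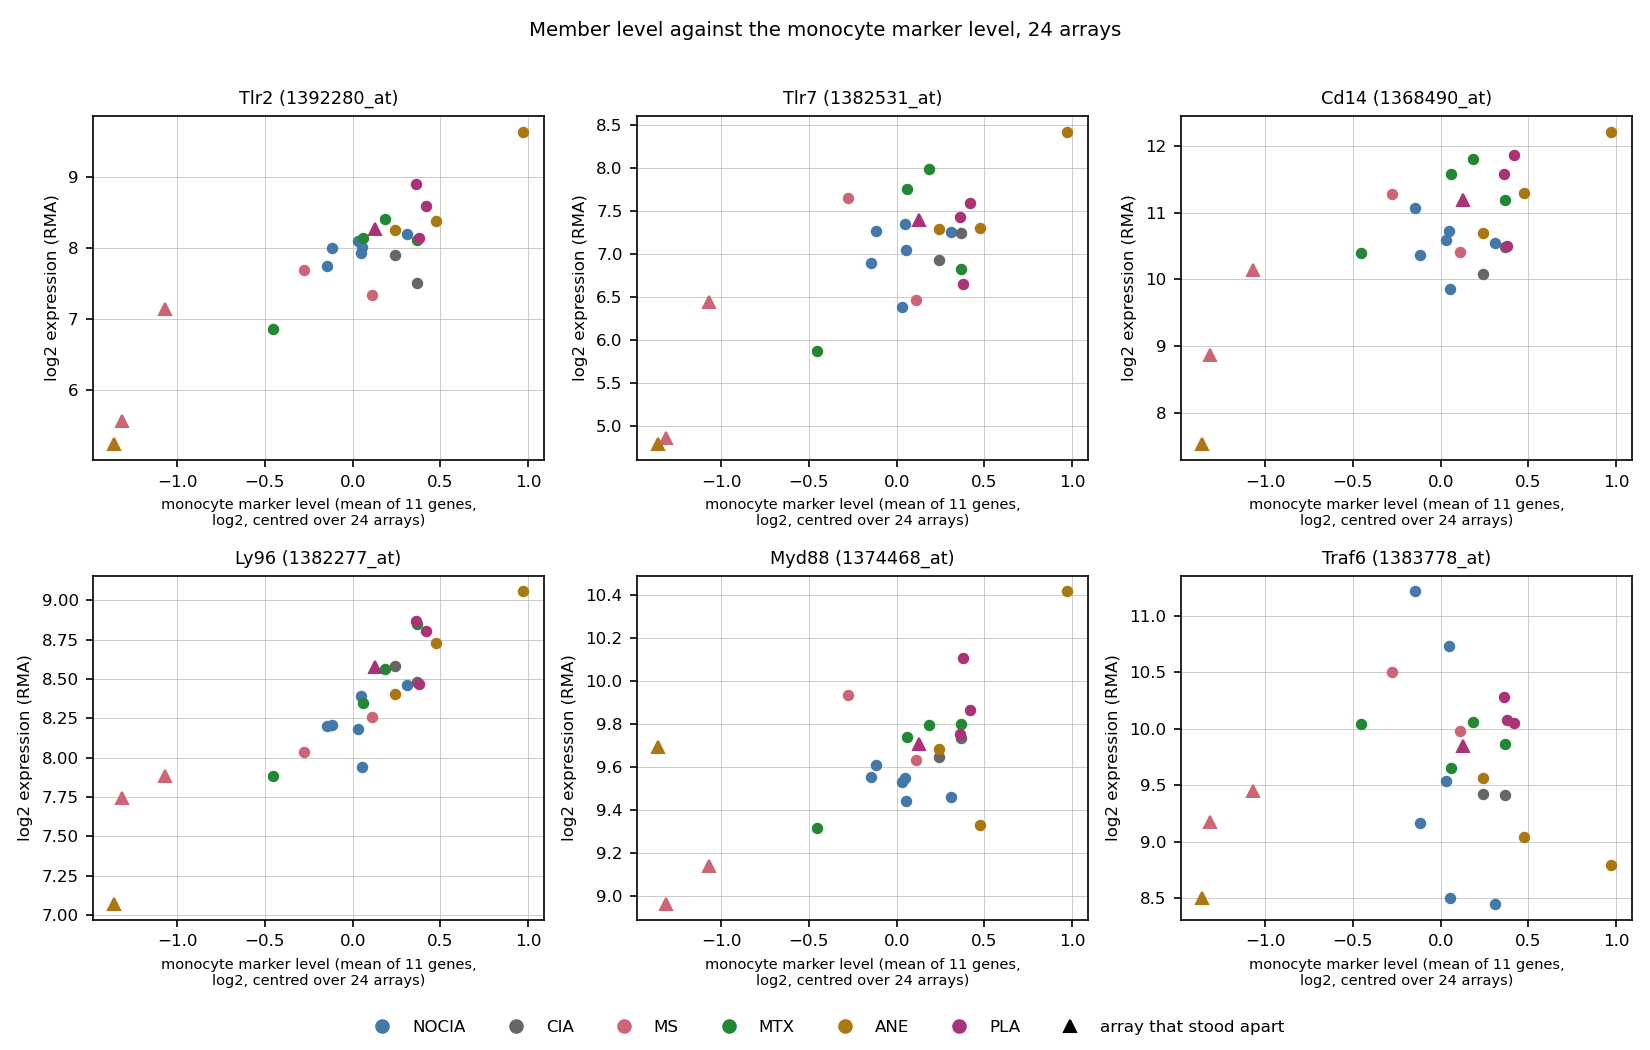
Log2 expression (vertical axes) of 6 probe sets against the mean centred log2 level of 11 monocyte markers (horizontal axes) in the 24 arrays, coloured by arm, with triangles for the 4 arrays that stood apart. Tlr2, Tlr7, Cd14 and Ly96 are lowest in the ANE 1-hour array with a marker level of -1.36 and highest in the one with 0.97.

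In ANE at 1 hour the direction of the mean hung on 1 array. With both arrays, the differences from CIA baseline were -0.26 ± 0.90 for Tlr2, -0.48 ± 0.81 for Tlr7, -0.41 ± 0.96 for Cd14 and -0.47 ± 0.44 for Ly96. Without ANE replicate 1 they were 1.94, 1.33, 1.94 and 0.53. The replicates lay on either side of both CIA arrays for all 4 genes. The neutrophil marker level was -1.51 and 2.28 in these 2 arrays, and its part was not tested. Without ANE replicate 2, the differences were -2.46 for Tlr2, -2.30 for Tlr7, -2.75 for Cd14 and -1.46 for Ly96. Without the 4 arrays that stood apart, which include replicate 1, Tlr2 and Cd14 were higher by 1.94 each.

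**Figure D4:**
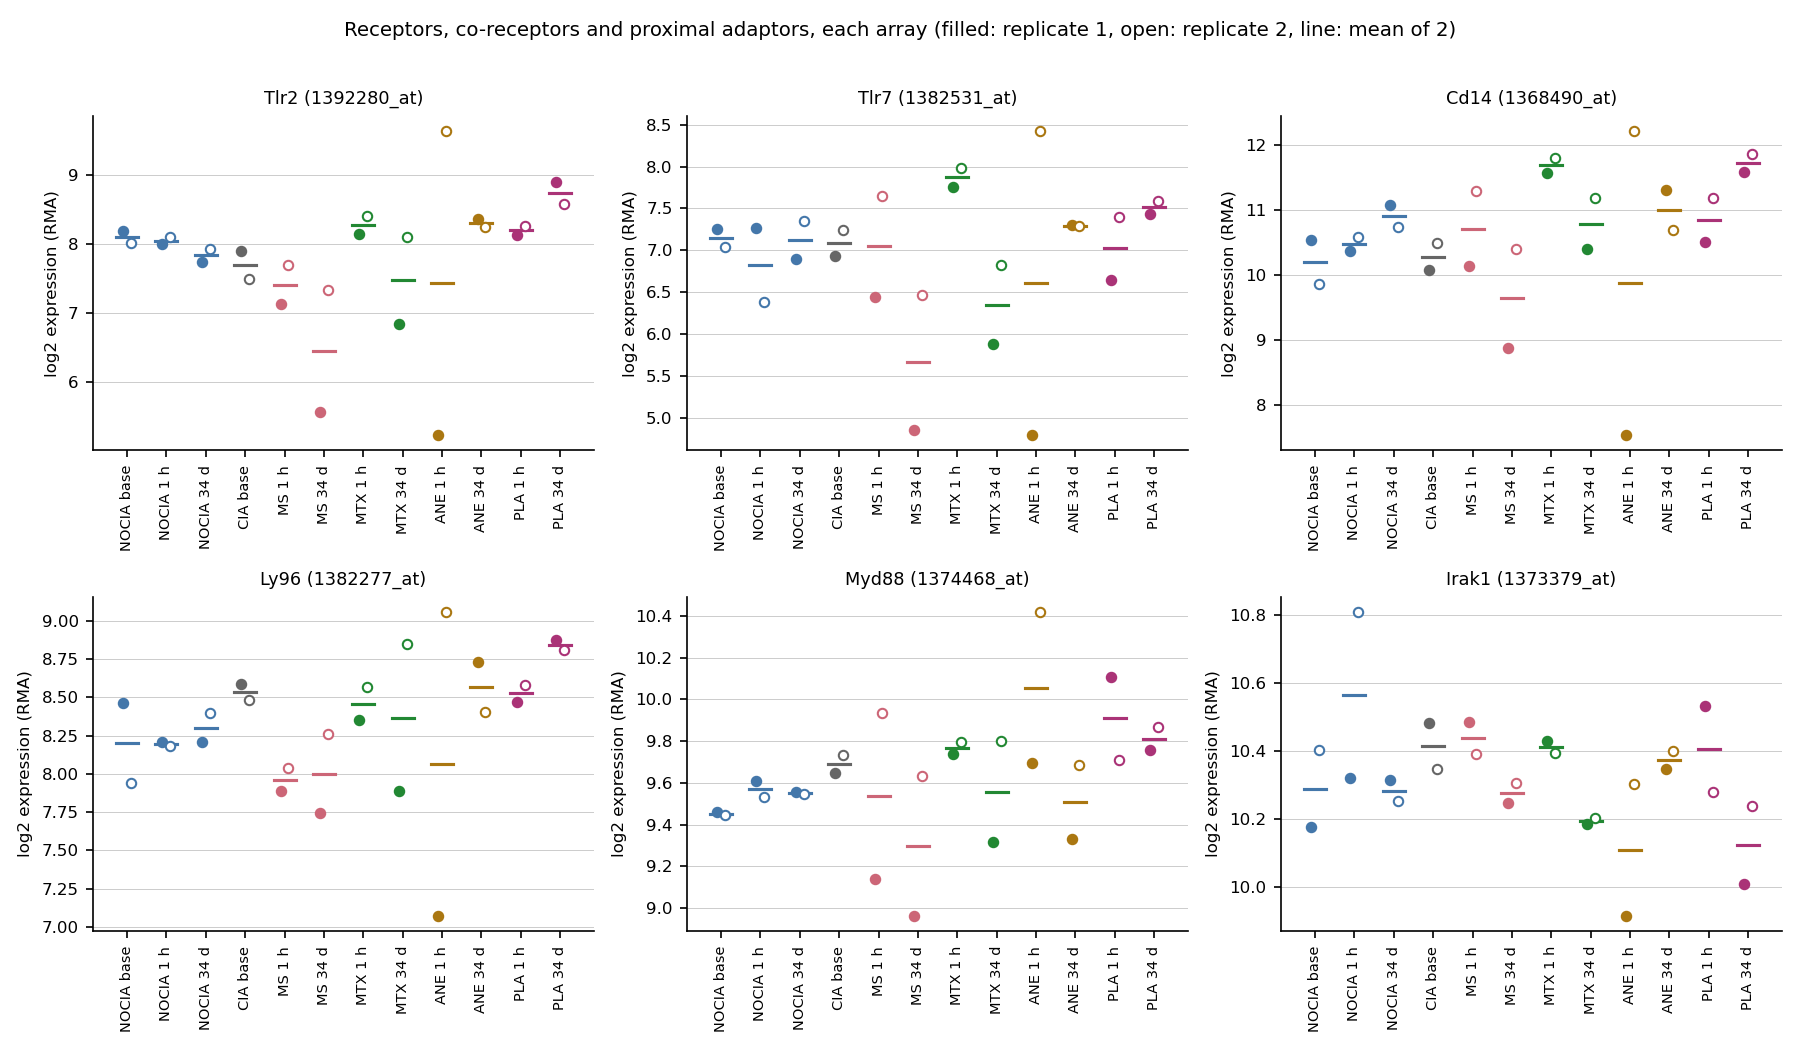
Log2 expression (vertical axes) of Tlr2, Tlr7, Cd14, Ly96, Myd88 and Irak1 (1373379_at) in each array by group (horizontal axes), with filled points for replicate 1, open points for replicate 2 and a line at their mean. The replicates of ANE at 1 hour lie 4.40 apart for Tlr2, 3.63 for Tlr7, 4.69 for Cd14 and 1.99 for Ly96.

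The proximal signalling genes varied little. Myd88 read 9.46 and 9.44 at NOCIA baseline, 9.65 and 9.73 at CIA baseline, 9.55 and 9.55 in NOCIA at 34 days, 8.96 and 9.63 in MS, 9.32 and 9.80 in MTX, 9.33 and 9.69 in ANE and 9.76 and 9.87 in PLA at 34 days. The largest difference in the 14 comparisons tested was 0.51, while the 12 group means spanned 0.76, from MS at 34 days to ANE at 1 hour. Irak1 stayed between 9.91 and 10.81 at 1373379_at and between 5.60 and 6.50 at 1394991_at, and the largest difference in those comparisons was 0.31. The 2 Irak1 probe sets correlated at 0.45 over the arrays, well under the 4 of Traf6. Irak4 read 4.12 to 4.78 and was below the filter. For neither Myd88 nor Irak1 was any probe set called, or past the study's thresholds, in any of the 14 comparisons of 2 groups.

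Ranked by group mean, neighbouring groups could rarely be separated. For Tlr7, Cd14, Ly96, Myd88 and Irak1 no gap between neighbours among the 12 groups exceeded 1 SE of a difference. For Tlr2 the only gap over 1 SE was 0.96. For Traf6, gaps over 2 SE numbered 2 at 1383778_at, 1 at 1392660_at, 1 at 1393809_at and 0 at 1384582_at. At 1383778_at NOCIA at 34 days (10.97) was followed by PLA at 34 days (10.17), MS at 1 hour (9.98) and PLA at 1 hour (9.96), and at the lower end ANE at 1 hour (8.65) was next to NOCIA baseline (8.48). At 1393809_at the largest gap, 1.41, lay between ANE at 1 hour (8.09) and NOCIA baseline (6.68).

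The genes most like each member over the 24 arrays, by Pearson r, differed between Traf6 and the receptors. For Traf6 (1383778_at) they were Zbtb43 (0.98), Maml1 (0.96) and Fam120b (0.95). For Tlr2 they were Fcgr1a (0.92), which encodes a monocyte Fc receptor and is itself on the monocyte list, Tlr1 (0.92), which forms a heterodimer with Tlr2, and Nadk (0.92). For Cd14 they were Clec7a (0.94), the beta-glucan receptor dectin-1, Samsn1 (0.88) and Pde4b (0.88), and for Ly96 Aldh3b1 (0.94), Igsf6 (0.93) and Fcgr1a (0.93). Tlr7 was most like Il10ra (0.90), Nfkbiz (0.90) and Mefv (0.90), Myd88 like Nudt9 (0.87), Klrb1b (0.86) and Ifitm2 (0.84), and Irak1 (1373379_at) like Rffl (0.81), Ubl7 (0.77) and Usp15 (0.77). Among the members, Tlr2 correlated with Tlr7 at 0.90 and with Cd14 and Ly96 at 0.88 each, and at 0.73, 0.67 and 0.77 without the 4 arrays that stood apart.

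Around the members, 69 of 85 further genes of the pathway could be measured. In NOCIA at 34 days against baseline, 13 rose and 3 fell, against 5.57% and 6.10% of all genes, and the list median was 0.08 with a median of -0.05 over all genes. Those that rose included Nfkb2 (1.48 ± 0.29), Relb (1.22 ± 0.21) and Rela (1.01 ± 0.25), subunits of NF-kB, of 8 transcription factors measured. Of 15 kinases and ubiquitin enzymes, 4 rose, the MAP kinase kinase kinase Map3k8 (1.68 ± 0.51), Tbk1 (1.23 ± 0.28), which phosphorylates interferon regulatory factors, Tab3 (1.15 ± 0.29), a partner of the kinase that Traf6 activates, and the ubiquitin ligase Peli1 (1.02 ± 0.21). The limma adjusted p of these 7 genes ran from 0.0021 to 0.0439.

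Of 12 inhibitors measured, 2 rose and none fell, Tollip, which restrains Irak1, by 1.32 ± 0.22 and Tnip1, a partner of the deubiquitinase A20, by 1.07 ± 0.22, and the median of the 12 was 0.14. Of 13 induced targets, the adhesion molecule Icam1 (2.20 ± 0.53) and the chemokine Ccl3 (1.48 ± 0.42) rose. Ctsl (2.00 ± 0.49), a protease that processes endosomal receptors, and the chaperone Cnpy3 (0.61 ± 0.18) rose too. The genes that fell were Cd180 (-1.63 ± 0.47), a Toll-like receptor homologue of B cells, Pik3ap1 (-1.31 ± 0.31), a B cell adaptor, and Cnpy4 (-0.85 ± 0.24). The B cell marker level was lower in the same arrays, as given above, and its part was not tested. The count of 16 was lower without any 1 of the NOCIA 34-day and NOCIA baseline arrays, which leaves 1 array in a group. The count of 2478 over all probe sets was lower in these fits too.

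**Figure D5:**
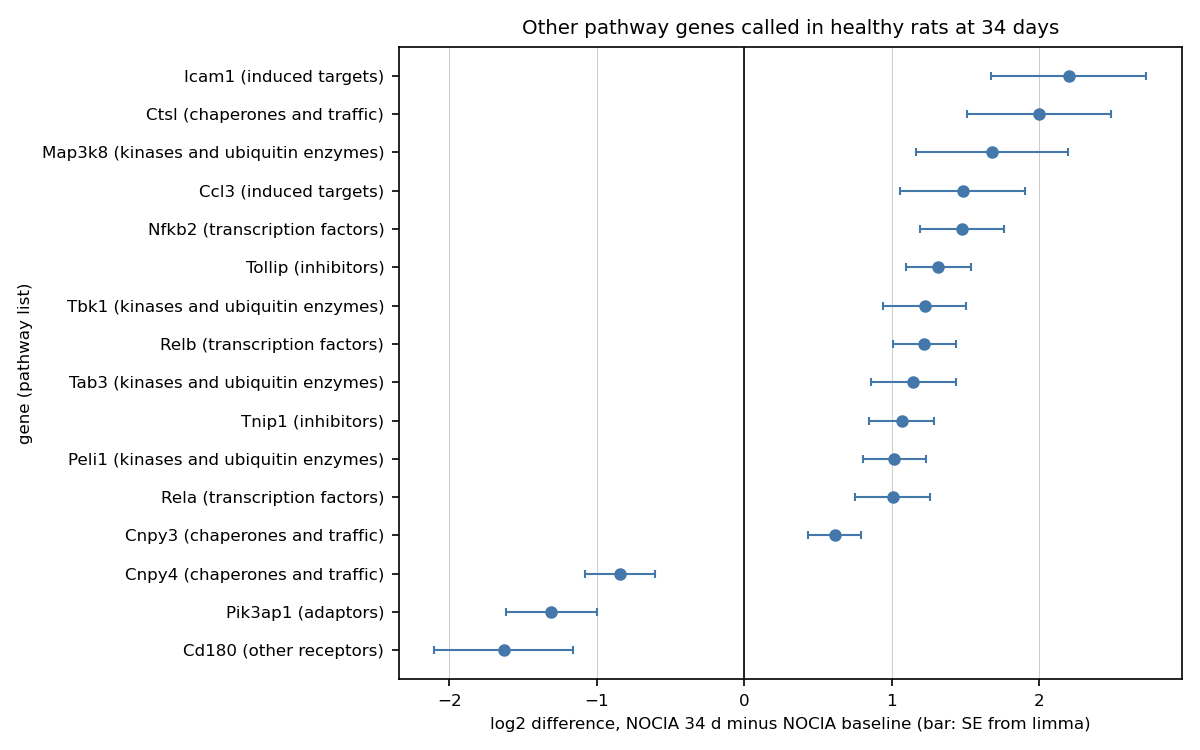
Log2 difference of NOCIA at 34 days minus NOCIA baseline (horizontal axis) with its SE from limma for the 16 pathway genes other than members that were called (vertical axis, with their list), 13 above and 3 below 0. Icam1 lies highest at 2.20 and Cd180 lowest at -1.63.

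In MS at 34 days against CIA baseline, the list median was -0.44, with a median of -0.25 over all genes. Of all genes, 6.40% were called as lower and 1.41% as higher. Near that share, 5 of the 69 pathway genes fell and none rose. They were Cd180 (-1.90 ± 0.47), its partner Ly86 (-1.13 ± 0.29), the adaptor Pik3ap1 (-1.19 ± 0.31), Ube2n (-1.13 ± 0.29), the enzyme that works with Traf6 in building ubiquitin chains, and Chuk (-0.96 ± 0.28), a catalytic subunit of the IkB kinase. The limma adjusted p ran from 0.0391 to 0.0495. The B cell marker level was -1.09 and -0.64 in MS at 34 days, against 0.24 and 0.28 at CIA baseline, and its part was not tested. The pathway calls were lost without either CIA baseline array or without MS replicate 1, as were those over all probe sets. More pathway genes were called without MS replicate 2. Fewer were called without the 4 arrays that stood apart. Each of these fits leaves 1 array in a group. With only the groups compared fitted or with array weights, no pathway gene and 0 of all probe sets were called.

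At 1 hour 1 further gene of the pathway was called, the cytokine Tnf, and in 1 comparison. In MTX at 1 hour Tnf read 10.22 and 10.32, against 5.28 and 5.27 at CIA baseline, a rise of 4.99 ± 0.75 (limma adjusted p = 0.0447), while 0.0271% of all genes were called as higher. That call was lost with a replicate block, and with no filter or a filter at the 60th percentile. It was also lost without any 1 of the 4 arrays, which leaves 1 array in a group. The difference itself ran from 4.88 to 5.04 over 12 alternative fits. Of the 13 induced targets, 9 passed the study's thresholds there, all higher, as 0.377% of all probe sets did, among them Il10 (2.60 ± 0.57), Cxcl10 (3.07 ± 0.72) and Cxcl2 (3.19 ± 0.88). The count as higher at 1 hour was 7 in PLA, 5 in MS, 3 in NOCIA and 2 in ANE. Of all probe sets 0.71%, 0.614%, 0.391% and 0.831% passed as higher in these groups. Tnf was also past these thresholds, without a call, at 1 hour in NOCIA (2.37 ± 0.75), MS (3.86 ± 0.75), ANE (2.09 ± 0.75) and PLA (2.05 ± 0.75). Its arrays differed widely there, reading 9.19 and 6.86 in NOCIA, 8.60 and 9.67 in MS, 6.76 and 7.98 in ANE and 5.84 and 8.82 in PLA. The PLA difference was 0.56 without replicate 2, 1 of the 4 arrays that stood apart, and 3.54 without replicate 1, and the NOCIA difference was 1.20 without replicate 1. In MS the adjusted p of Tnf was 0.0362 without replicate 2 and 0.0126 without the 4 arrays, and in ANE 0.0236 without the 4 arrays (limma). Neutrophil markers were also higher at 1 hour, 0.19 and 0.56 in MTX, 0.19 and 0.17 in MS and 0.58 and 0.40 in PLA, against -0.57 and -0.45 at CIA baseline, and -0.41 and 0.74 in NOCIA, against -0.69 and -0.91 at its baseline, while the ANE arrays lay on either side of CIA baseline, as given above. Their part was not tested. In PLA at 34 days 8 of the 13 induced targets passed the study's thresholds as higher, as 0.329% of all probe sets did, led by Icam1 (2.17 ± 0.53), Cxcl2 (2.98 ± 0.88) and Il1b (3.52 ± 1.04), with limma adjusted p of 0.611 to 0.837. That count was lower without PLA replicate 1 and without CIA baseline replicate 2, which each leave 1 array in a group. At 34 days it was 6 in ANE, 5 in NOCIA, 1 in MTX and 0 in MS, each against its baseline. Of all probe sets 0.184%, 5.55%, 0.155% and 5.22% passed as higher there. In MS against PLA at 34 days 9 of the 13 passed as lower, as 3.04% of all probe sets did, such as Cxcl10 (-2.77 ± 0.72) and Ptgs2 (-3.53 ± 0.95), with a limma adjusted p of 0.179 each. The MS against PLA count was 5 under array weights. It was also lower without MS replicate 1, without PLA replicate 1 and without the 4 arrays that stood apart, which each leave 1 array in a group. The marker levels that differed between these arms are given above with the receptors. Their part was not tested.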

How the data were processed

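Per the labels, the authors extracted all cells in 1 batch, labelled them with a 3' amplification kit and deposited log2 expression values computed with RMA in the affy package (no version is stated). The study's methods also name MAS5 intensities with detection calls. Values ran from 2.18 to 15.02, with array medians of 5.49 to 5.58, and were used as given. RMA shrinks small differences, and the array number limits precision. Of 31099 probe sets, 57 controls were left out, and 20690 were kept because 2 or more arrays put them above their own 40th percentile. Tests used limma 3.58.1 under R 4.3.3, with 1 coefficient per group and 12 residual degrees of freedom. Each gene of the pathway lists was taken by its probe set with the highest mean. With 2 arrays a group, an exact permutation test has 0.333 as its smallest p. The fit was tested on simulated data. Members and lists were chosen with earlier results of these data known. Alternatives were a replicate block, other filters, normalization, variance model and weights, fitting only the groups compared, and leaving out arrays. Named were all members, pathway genes called, and up to 6 per comparison past the study's thresholds by the moderated statistic.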

Additional observations from a re-analysis of the deposited data

Results flagged for a closer look

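The 34-day change of ANE rats differed from that of healthy rats by the limma test of the difference itself at all 4 probe sets of Traf6, by -2.61 (1383778_at), -2.57 (1392660_at), -3.76 (1393809_at) and -3.03 (1384582_at) on the log2 scale. The same test was passed by the ubiquitin ligase Peli1 (-1.40, limma adjusted p = 0.0259) and by the inhibitor Tollip (-1.43, limma adjusted p = 0.0272). The calls of Traf6, Peli1 and Tollip were lost in some fits that left out 1 of the 8 arrays, which leaves 1 array in a group. Of 16 alternative fits, the Traf6 probe sets kept their calls in 10 to 12, Peli1 in 10 and Tollip in 9. The differences kept their sign, with Peli1 from -1.63 to -1.18 and Tollip from -1.64 to -1.22.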

How the results depend on the processing

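Across the alternatives, the 4 Traf6 calls in NOCIA at 34 days against baseline were kept in every fit. Without the filter Tlr4 was called there too, as given above. The count of member probe sets called also moved elsewhere. Fitting only the groups compared gave 4 called in CIA against NOCIA at baseline, 1 in NOCIA at 1 hour and 3 in PLA at 34 days. Of all 20690 probe sets, 759, 47 and 130 were called there. In the tests of the MTX and PLA 34-day changes against NOCIA that fit gave 4 and 5. Of all probe sets, 1153 and 2993 were called in these tests. Array weights gave 4 at baseline, 1 in MTX at 34 days, 5 in PLA at 34 days, and 4 in each of those 2 tests. The counts over all probe sets were 1020, 1010, 1723, 1846 and 3397, in that order. Without the 4 arrays that stood apart, counts were 2 at baseline, 1 in NOCIA at 1 hour, and 4 in each of the MTX and PLA tests. Over all probe sets they were 258, 125, 1170 and 1903. That fit left 1 array each in MS at 34 days and in MS, ANE and PLA at 1 hour, so counts there are not given. Leaving out 1 array gave 0 to 3 in ANE at 1 hour, 0 to 4 in MS against PLA, 0 to 4 in the MS test and 0 to 4 in the ANE test. Each of these fits leaves 1 array in a group, and the count over all probe sets moved too. It rose in ANE at 1 hour without either ANE array, and in MS against PLA and the MS test without MS replicate 2. In the ANE test it fell in every such fit. These member counts therefore cannot be read alone.

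Leaving out 1 array turned some differences in sign. In ANE at 1 hour against CIA baseline, without replicate 2 and without replicate 1 (the latter also without the 4 arrays), Tlr2 was -2.46 and 1.94, Tlr7 -2.30 and 1.33, Cd14 -2.75 and 1.94, and Ly96 -1.46 and 0.53. In MS at 34 days Cd14 was -1.41 without replicate 2 and 0.13 without replicate 1 or without the 4 arrays. In MTX at 34 days, without replicate 2 and without replicate 1, Tlr2 was -0.85 and 0.41, Ly96 -0.65 and 0.32, and Myd88 -0.37 and 0.11, while Ly96 against PLA was -0.96 and 0.0088. In ANE at 34 days Ly96 ran from -0.13 without ANE replicate 1 to 0.20 without ANE replicate 2, and was -0.02 without CIA baseline replicate 2. None of these was called in the fit of all arrays, and the cause was not tested.

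The replicate numbers gave no pairing that held over all groups. Deviations of same-numbered arrays correlated from -0.76 to 0.80 over 66 pairs of groups, with 25 over 0.1. Some groups deviated together, as MS at 1 hour did with MS at 34 days (0.80) and with MTX at 1 hour (0.54). Others deviated in opposite ways, as MS and PLA at 1 hour did (-0.76). With a replicate block, 4 member probe sets were called in NOCIA at 34 days and 4 in the ANE test, and the block changed no count of members called. With 2 arrays per group, a missed threshold does not show that levels were alike, and a group left with 1 array was assumed to vary like the others.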
